A study of Mus musculus with 18 samples.

Results

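Malat1, Neat1, Meg3, Mirg, Rian, Snhg11 and Miat are long noncoding RNAs that stay largely in the nucleus, and they were followed here in single-nucleus libraries of mouse brain. These 7 genes were chosen by symbol, and 6 of them were measured among the 30905 genes of the count matrices. Rian was not analysed here. The 18 libraries came from 9 Kun Ming mice, all 8 weeks old, 1 from the hippocampus (Hip) and 1 from the prefrontal cortex (PFC) of each mouse. The 3 germ-free (GF) mice were reared without microbes, the 3 specific pathogen free (SPF) mice carried a microbiota, and the 3 CGF mice were GF mice that had been housed together with SPF mice and so had gained their microbes. By the study's methods, GF and CGF mice were kept in film isolators and SPF mice were raised under other conditions. Housing and group therefore cannot be told apart between SPF mice and the others.

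Long noncoding RNAs act as RNA and are not translated. Malat1 gathers in nuclear speckles, the bodies that hold splicing factors, and Neat1 is the scaffold on which paraspeckles are built. Miat forms a further nuclear compartment in neurons. Meg3, Rian and Mirg lie one after the other on chromosome 12 and are read from the maternal chromosome only, in the imprinted Dlk1-Dio3 region. Rian hosts small nucleolar RNAs (snoRNAs) and Mirg hosts microRNAs (miRNAs), which are cut from the longer transcript. Snhg11 is a snoRNA host gene that is known for its expression in neurons. Because such RNAs remain in the nucleus, they make up more of a nuclear library than of a whole-cell library.

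In mm10 coordinates with the GENCODE vM21 annotation, Malat1 lies at chr19:5795690-5802672 on the minus strand as a single gene of 6983 bases, and Neat1 lies 22035 bases from it at chr19:5824708-5845478 on the same strand. Meg3 lies at chr12:109541001-109571726 and Mirg at chr12:109729764-109749460, both on the plus strand and 158037 bases apart. Snhg11 lies at chr2:158375638-158386145 on the plus strand, holds 2 annotated snoRNAs, and is classed as protein coding in that annotation. Miat lies at chr5:112213228-112229395 on the minus strand. The libraries were primed from stretches of A, so a run of A inside a transcript is a place where it can be caught. Malat1 is known to end at an A-rich stretch that is part of the gene and not added as a tail, with the end made by cutting just after it. In the longest annotated transcript, Malat1-201, that stretch holds 12 A at positions 6674 to 6685. It is shown with the run in capitals, since it bears on how this RNA is counted.
Malat1: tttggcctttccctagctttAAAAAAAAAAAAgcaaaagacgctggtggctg
Transcripts with more A-rich stretches can give more unique molecular identifiers (UMIs) per molecule, so levels are compared here within a gene and not between genes. Where a ratio of genes is given, only its difference between groups is read.

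Meg3 and Mirg are proposed to lie in 1 transcription unit that starts at the Meg3 promoter, which was not tested here. RefSeq also gives Mirg a promoter window of its own, chr12:109734731-109735030. The Meg3 window chr12:109540746-109541045 (RefSeq, GRCm38.p6, plus strand) is shown because both genes are followed below. Capitals mark matches on either strand to the TATA box motif TATAAA, to the CCAAT box and to the full cAMP response element, TGACGTCA.
Meg3 promoter: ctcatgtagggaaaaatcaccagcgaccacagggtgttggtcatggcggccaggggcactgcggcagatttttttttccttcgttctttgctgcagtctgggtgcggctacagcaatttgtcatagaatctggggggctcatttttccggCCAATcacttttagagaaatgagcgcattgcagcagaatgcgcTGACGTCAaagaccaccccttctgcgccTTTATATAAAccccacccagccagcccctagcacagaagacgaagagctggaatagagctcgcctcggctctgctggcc
The window holds 2 matches to TATAAA, which overlap, 1 to the CCAAT box and 1 to the cAMP response element. Among 32851 promoter windows of this length, 13.6% held the TATA box motif, 37.4% the CCAAT box and 1.79% the cAMP response element. These matches are descriptions of the letters and not of binding.

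Mirg spans 14 miRNA genes with 26 mature miRNAs in RefSeq and 25 different seeds, the bases 2 to 8 with which a miRNA recognizes its targets. A few are shown with the seed in capitals, to make plain what the Mirg transcript carries, and miR-453 and miR-496a-5p are the pair that share a seed. The first 4 are among the best known of the cluster, and miR-134 in particular is known for its role at dendrites.
mmu-miR-134-5p: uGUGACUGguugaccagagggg
mmu-miR-382-5p: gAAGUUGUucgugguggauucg
mmu-miR-410-3p: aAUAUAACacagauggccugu
mmu-miR-154-5p: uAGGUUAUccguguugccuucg
mmu-miR-453: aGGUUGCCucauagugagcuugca
mmu-miR-496a-5p: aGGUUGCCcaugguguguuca
Meg3 spans 2 miRNA genes, of which miR-770-3p has the sequence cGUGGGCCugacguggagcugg. The miRNAs themselves are not captured by these libraries, and the Mirg values are values of the host transcript.

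A Hip library held 49067853 to 63217083 UMIs. A PFC library held 59126586 to 71463928 UMIs in GF mice and 20336250 to 26949210 in SPF and CGF mice, so depth and group cannot be told apart in PFC. The ribosomal RNA-derived gene Gm42418 took 0.0117% to 0.0188% of UMIs in PFC of GF mice and 1.20% to 2.39% in that of the other mice, and 0.0225% to 0.0315% against 0.0574% to 0.171% in Hip. Mitochondrial UMIs took 0.305% to 0.556% in GF mice and 1.21% to 2.86% in the others in PFC, but 0.451% to 0.879% in GF mice and 0.0686% to 0.429% in the others in Hip. The part of the Gm42418 and mitochondrial shares in the values by cell type was not tested. Any pair of libraries shared 6 to 29 barcodes.

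Clusters of nuclei were named from marker genes as excitatory neuron-like, interneuron-like, astrocyte-like, oligodendrocyte-like, oligodendrocyte precursor-like (OPC) and microglia-like, and the suffix is left out hereafter. Of 71398 nuclei kept in Hip, 40137 were excitatory neurons, 4986 interneurons, 6618 astrocytes, 5891 oligodendrocytes, 1991 OPC and 2168 microglia. Of 66602 in PFC, the counts were 37736, 6960, 5428, 2756, 1810 and 2206 in the same order. Levels are in CPM, the UMIs of a gene per 1000000 UMIs of all genes in a mouse and type. Defining markers were present in each mouse, for example Slc1a3 at 1979 to 2925 CPM in astrocytes, Mbp at 2443 to 4172 in oligodendrocytes, Pdgfra at 370.3 to 736.2 in OPC and Csf1r at 535.3 to 1177 in microglia, with Gad1 at 217.3 to 394.3 in interneurons and Slc17a7 at 150.6 to 540.7 in excitatory neurons. GF nuclei clustered apart from the others: 7 of the 19 clusters of these types in Hip held over 90% GF nuclei and 9 held under 10%, and in PFC 8 of 17 and 9 of 17 did. The excitatory neurons of GF mice lay mainly in clusters 2, 7, 10 and 11 of Hip and 1, 6 and 9 of PFC, and those of the other mice in clusters 0, 1, 5, 6 and 8 and in clusters 0, 2, 3 and 4. In Hip the GF and the other nuclei of a type lay in cluster 12 against 9 for interneurons, 13 against 3 for astrocytes, 14 against 4 for oligodendrocytes, 22 against 17 for OPC and 24 against 15 for microglia. In PFC these were 8 against 5, 10 against 7, 15 against 12, 20 against 14 and 16 against 13.

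Each gene had its own distribution over these 6 cell types, with Malat1 and Neat1 highest in glia and the others in neurons. Malat1 was found in every type at a high level. Its mean over the 9 mice in Hip was 67426 in oligodendrocytes, 64202 in astrocytes, 42783 in excitatory neurons, 41071 in microglia, 40866 in interneurons and 37936 in OPC. Astrocytes lay above excitatory neurons in 9 of 9 mice, whereas the order of oligodendrocytes and astrocytes held in 6 of 9, and the 4 lower types were not ordered alike in all mice. The order of excitatory neurons and microglia turned with the group, at 71181 and 52148 in GF mice but 28175 and 36226 in SPF mice. In PFC, oligodendrocytes (76530) and astrocytes (75751) again stood above the other types, whose means ran from 39981 in interneurons to 44306 in excitatory neurons and lay at 33356 in excitatory neurons and 34422 in microglia of SPF mice.

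Neat1 had the widest range of the genes over these 6 types. In Hip its mean was 508.6 CPM in oligodendrocytes, 272.3 in astrocytes, 57.25 in microglia, 24.66 in OPC, 4.844 in excitatory neurons and 3.118 in interneurons, and each type lay above the next in 9 of 9 mice. The level in oligodendrocytes was 105.0 times that in excitatory neurons. The order was the same in PFC, at 650.0, 364.8, 83.91, 27.57, 5.694 and 3.984, with oligodendrocytes above astrocytes in 8 of 9 mice and excitatory neurons above interneurons in 7 of 9. Malat1 and Neat1 are neighbours on chromosome 19, and of these 6 types both were highest in oligodendrocytes and astrocytes in Hip and in PFC.

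Meg3, Snhg11 and Mirg were highest in interneurons and next in excitatory neurons. Meg3 in Hip had a mean of 10177 in interneurons, 5865 in excitatory neurons and 1339 in microglia, each above the next in 9 of 9 mice, and then 1038 in oligodendrocytes, 969.2 in OPC and 923.1 in astrocytes, which were not ordered alike in all mice. Snhg11 fell from 5317 in interneurons over 2401 in excitatory neurons to 411.5 in OPC, and Mirg from 185.5 over 85.90 to 9.376 in astrocytes. The order of the first 2 types held in 9 of 9 mice for all 3 genes and in PFC as well, where the interneuron means were 8611 for Meg3, 4446 for Snhg11 and 196.7 for Mirg. Miat had another order, with excitatory neurons first at 284.8 in Hip and 322.5 in PFC, then interneurons at 115.1 and 133.6, then OPC at 76.60 and 105.8.

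**Figure D1:**
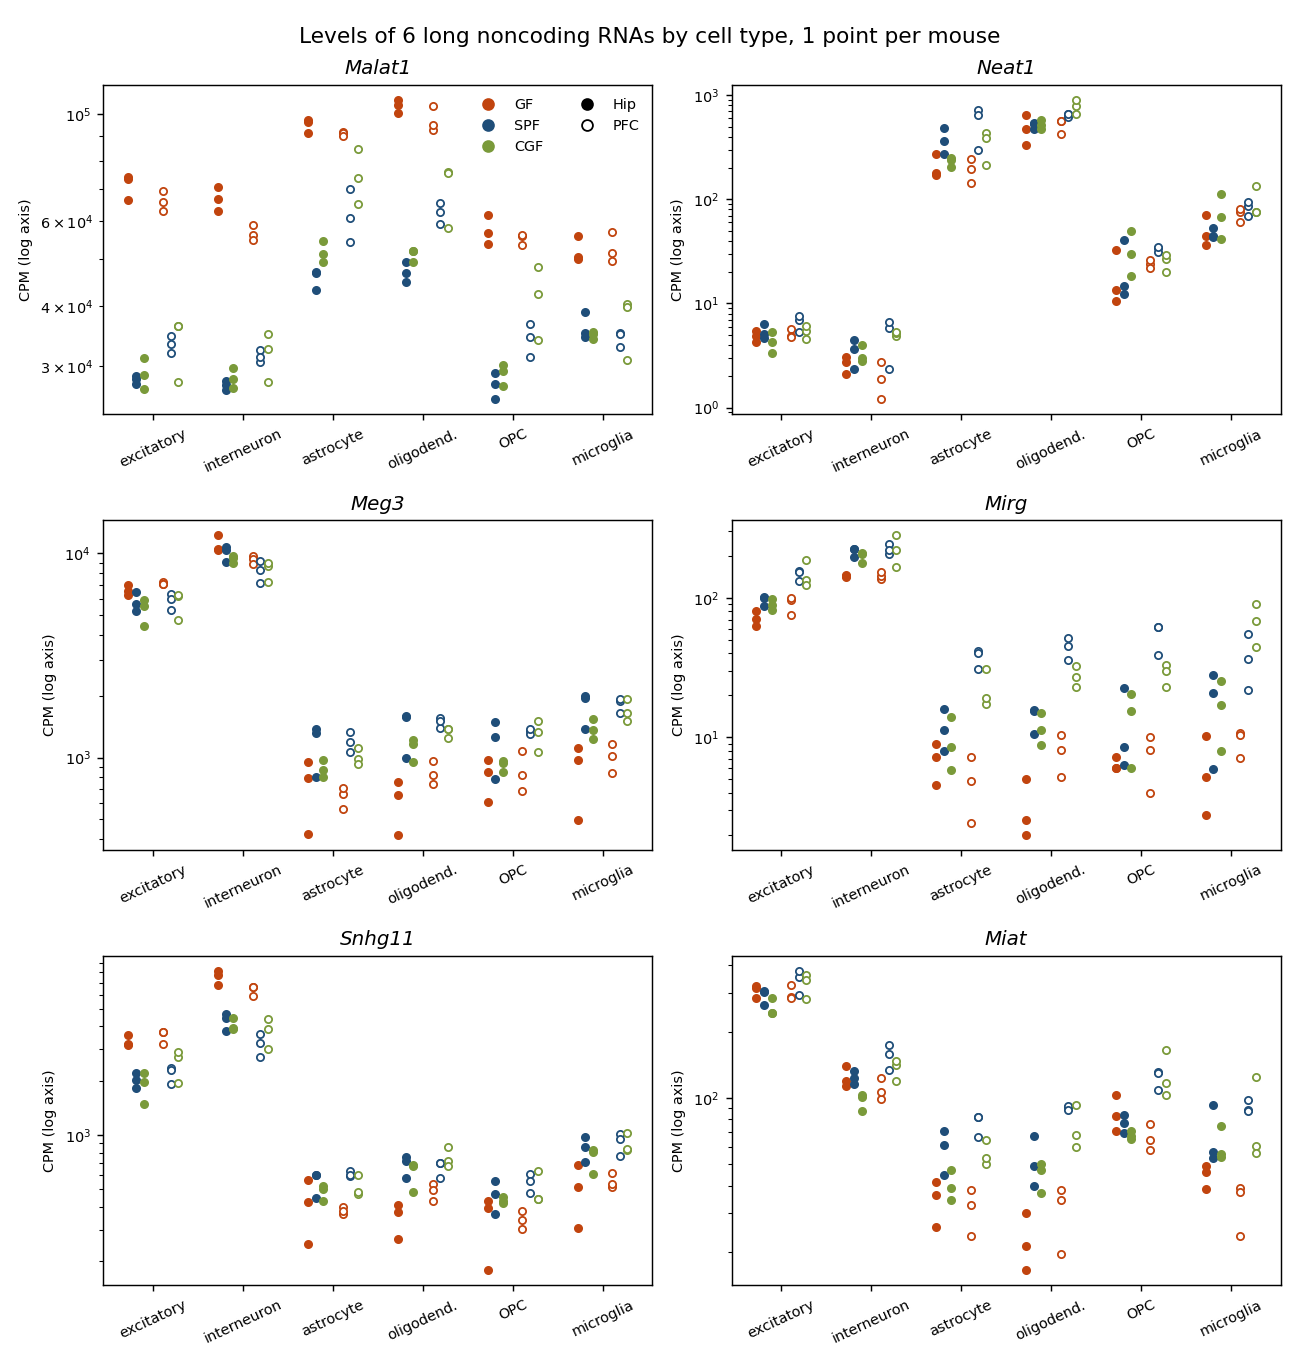
Level of each of the 6 genes (CPM, log axis) in 6 cell types, with 1 point for each mouse, filled for Hip and open for PFC. Malat1 of GF mice lies above that of SPF and CGF mice in every type, Neat1 is highest in oligodendrocytes (mean 508.6 in Hip) and near the bottom in neurons (4.844 in excitatory neurons of Hip), and Meg3, Mirg and Snhg11 are highest in interneurons.

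A low level of a neuronal RNA in glia can also be free RNA taken up in droplets. A list of 10 abundant neuronal transcripts, among them Snap25, Syt1 and Camk2a, had in Hip astrocytes 15.9% to 18.7% of its level in excitatory neurons in GF mice, 21.3% to 28.8% in SPF mice and 17.1% to 21.9% in CGF mice. Meg3 in the same astrocytes stood at 6.77% to 13.6%, 14.3% to 26.5% and 15.6% to 18.2% of its level in excitatory neurons, and Mirg at 7.29% to 12.8%, 9.14% to 15.8% and 6.58% to 14.1%. In these astrocytes Meg3 and Mirg, taken relative to excitatory neurons, stood under the list in all 9 mice. Whether astrocytes express them was not tested. Hip interneurons held 160.3% to 204.7% of the Meg3 level of excitatory neurons but 54.5% to 62.1% of that of the list, so Meg3 and the list were not spread alike over neurons. Meg3 also stood under the list in all 9 mice in OPC of both regions and in PFC astrocytes and oligodendrocytes. In Hip OPC, however, the list itself was higher than in the other glial types, at 35.5% to 41.5% in SPF mice against 16.4% to 31.8%. Expression of the listed genes by OPC was not tested, so the list is not a like gauge there. In Hip microglia Meg3 stood under the list in GF mice (7.97%, 16.01% and 15.0% against 18.1%, 18.8% and 19.6%), above it in SPF mice (31.1%, 24.5% and 37.5% against 25.7%, 22.3% and 31.8%) and above it in CGF mice 17 and 18 but not 19. In Hip oligodendrocytes it was under the list in the GF mice (6.71% to 11.7% against 13.3% to 15.1%) and above it in each SPF and CGF mouse. Neat1 runs the other way, since it was lowest in the neurons.

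Within the hippocampal excitatory neurons, dentate granule neurons differed from CA1 and CA3 pyramidal neurons in Meg3, Mirg and Snhg11, and hardly in Malat1 and Miat. These subtypes were named from markers and held 16027, 6703 and 6611 nuclei. Snhg11 in dentate granule neurons was 107.2, 196.8 and 199.8 CPM in the 3 GF mice, 251.6, 203.2 and 292.3 in the SPF mice and 228.6, 216.3 and 192.9 in the CGF mice. In CA1 it was 4086, 4365 and 3572 in GF mice, 2672, 2772 and 2295 in SPF mice and 2488, 2236 and 2201 in CGF mice. The dentate level was thus 0.0262 to 0.127 of the CA1 level of the same mouse, and 0.0247 to 0.126 of the CA3 level. It was also lower than in every glial type in 9 of 9 mice, from 0.259 of the level in microglia to 0.601 of that in OPC. CA1 and CA3 neurons of the same mice held 2201 or more Snhg11 CPM. The part of free RNA in the dentate level was not tested.

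Meg3 in dentate granule neurons was 0.147 to 0.240 of the CA1 level and 0.162 to 0.252 of the CA3 level over the 9 mice, and Mirg was 0.161 to 0.285 and 0.155 to 0.233. For Malat1 the ratios were 0.818 to 0.965 and 0.764 to 0.972, and for Miat 0.825 to 0.939 and 0.919 to 1.07. Neat1, which was near the floor in all neurons, gave 0.857 to 1.71 against CA1. The excitatory subtypes of PFC differed less. There Malat1 was higher in upper-layer than in layer 5 neurons by a ratio of 1.02 to 1.24 and than in layer 6 neurons by 1.13 to 1.44, in 9 of 9 mice each, and Snhg11 was lower in upper-layer than in layer 5 neurons, at 0.871 to 0.970, in 9 of 9 mice.

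**Figure D2:**
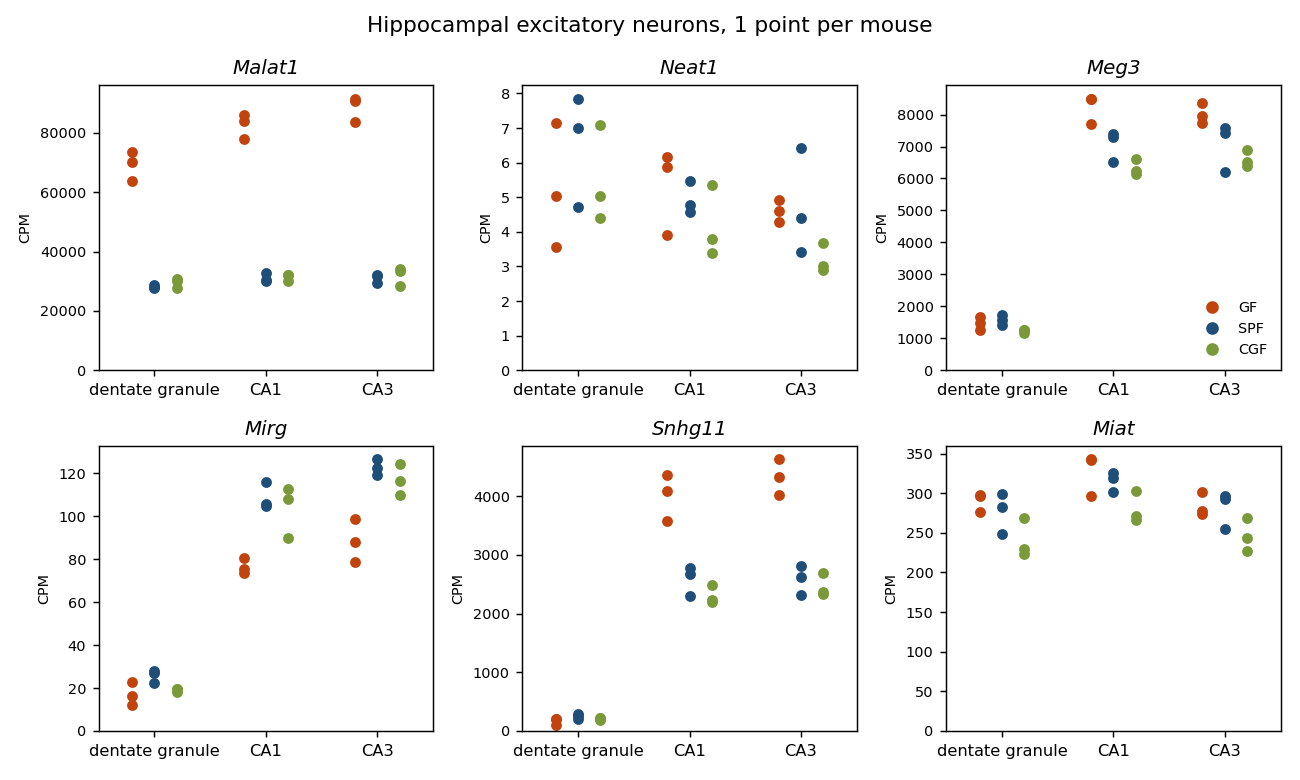
Level of the 6 genes (CPM) in dentate granule, CA1 and CA3 neurons of Hip, with 1 point for each mouse in GF, SPF and CGF. Snhg11, Meg3 and Mirg of dentate granule neurons lie far under those of CA1 and CA3 (Snhg11 at 0.0262 to 0.127 of CA1), and Malat1 separates GF mice from the other 6 in all 3 subtypes.

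GF and SPF mice were compared to ask whether these RNAs differ between mice without and with a microbiota, with edgeR's quasi-likelihood test on the summed UMIs of each mouse and type and Benjamini-Hochberg adjustment over all genes tested. Malat1 was higher in GF mice in all 6 types of Hip and in 5 of 6 types of PFC. Meg3 was lower in all 4 glial types of both regions. In the 4 glial types of PFC, Miat, Mirg and Snhg11 were lower in each, whereas in Hip Miat and Snhg11 were called lower in 2 of 4 and Mirg in 1 of 3 tested. Snhg11 was higher in both neuron types, and Neat1 was lower in astrocytes and in PFC interneurons. Over the genes and types, 8 differences were called higher and 12 lower of 35 tested in Hip (57.1%), and 8 higher and 21 lower of 35 in PFC (82.9%). In PFC nuclei of 1500 to 6000 UMIs, 7 were called higher and 6 lower, with 8 values too low to be tested. The share of all genes called in those nuclei is not given, and the shares below are of nuclei of all depths. Of all tests over these 6 types, 19.9% were called higher and 16.8% lower in Hip, and 26.2% higher and 25.6% lower in PFC, so that much of the transcriptome differed between these groups. By type in Hip, 32.4% of all genes were called in astrocytes, 35.8% in oligodendrocytes, 22.2% in OPC, 26.6% in microglia, 47.0% in excitatory neurons and 43.6% in interneurons. The share was 46.8%, 42.1%, 37.8%, 39.0%, 63.2% and 57.7% in PFC in the same order. The members called were 4 of 6 in Hip astrocytes, 5 of 6 in oligodendrocytes, 2 of 6 in OPC, 3 of 5 in microglia, 3 of 6 in excitatory neurons and 3 of 6 in interneurons, and in PFC 6 of 6, 5 of 6, 5 of 5, 4 of 6, 4 of 6 and 5 of 6.

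**Figure D3:**
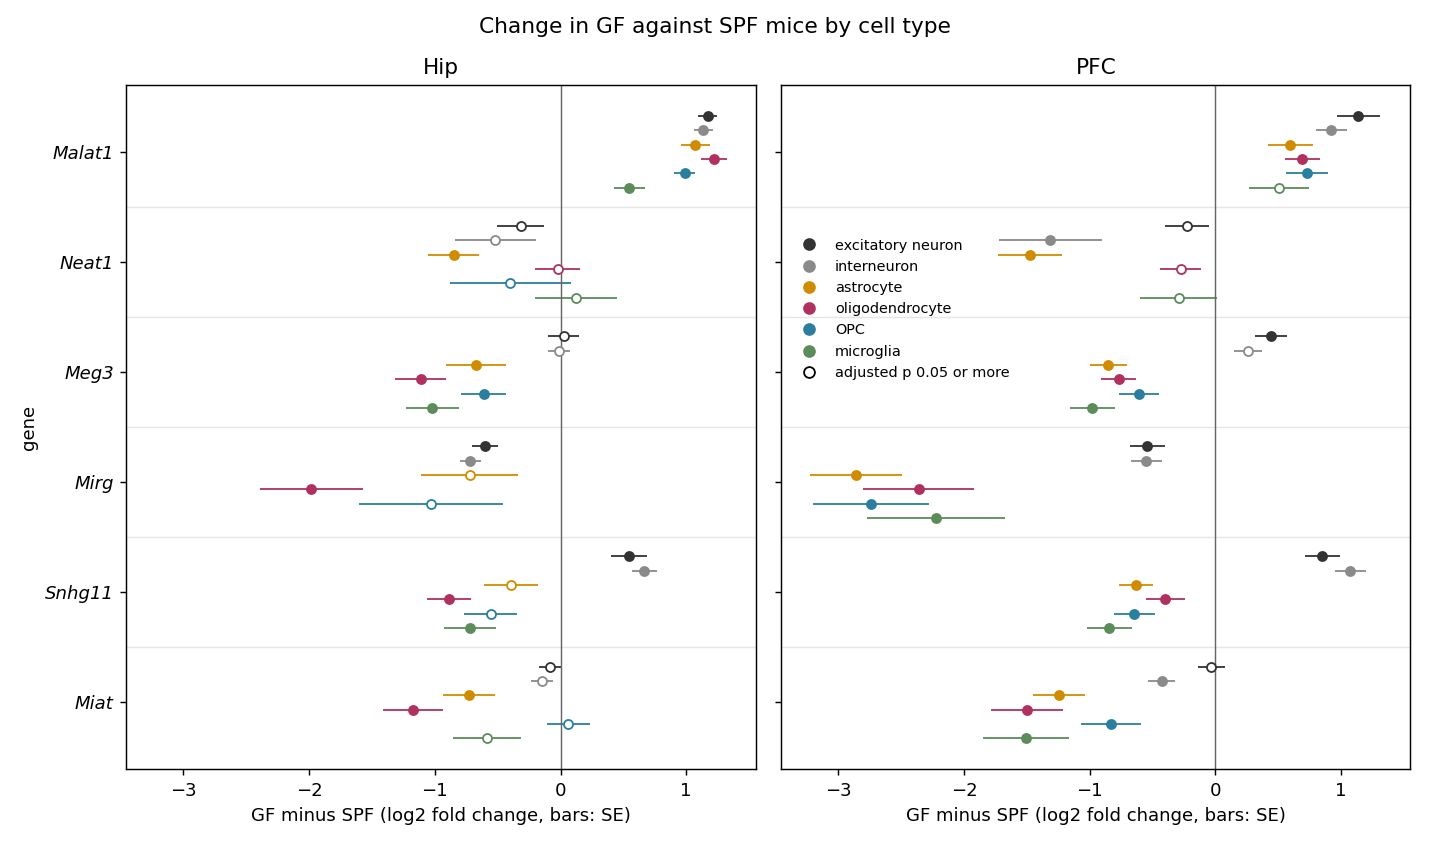
Change of each gene in GF against SPF mice (log2 fold change from edgeR, bars are the standard error) in 6 cell types of Hip and PFC. Filled points passed an adjusted p of 0.05, and Malat1 lies to the right of 0 in all types (1.17 in excitatory neurons of Hip), whereas Mirg lies to the left in every type tested.

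Malat1 in excitatory neurons of Hip was 73268, 73959 and 66315 CPM in the GF mice, 28624, 27636 and 28266 in the SPF mice, and 26922, 28831 and 31230 in the CGF mice. All GF mice lay above all others. Its log2 fold change was 1.17 ± 0.07 (SE, edgeR quasi-likelihood, Benjamini-Hochberg adjusted p = 2.9e-05). In oligodendrocytes of Hip it was 107029, 104514 and 100561 in GF, 49388, 46842 and 44841 in SPF and 52076, 52137 and 49449 in CGF mice (1.22 ± 0.11). The change was 1.14 in interneurons, 1.07 in astrocytes and 0.99 in OPC, and at 0.55 ± 0.13 it was lowest in microglia. The same nuclear speckle RNA was higher in each of the 3 hippocampal excitatory subtypes too, at 63831 to 73449 in dentate granule neurons of GF mice against 27725 to 28816 in those of SPF mice.

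In PFC, Malat1 in excitatory neurons was 69232, 65846 and 62919 in GF, 34620, 32020 and 33426 in SPF and 36422, 27917 and 36349 in CGF mice, a log2 fold change of 1.14 ± 0.17 (edgeR adjusted p = 9.3e-05). It was 0.92 in interneurons, 0.60 ± 0.18 in astrocytes, 0.69 in oligodendrocytes and 0.73 in OPC. In microglia it was 57006, 49612 and 51443 in GF against 35266, 35062 and 32939 in SPF mice, and the 0.50 ± 0.24 did not pass (edgeR adjusted p = 0.092), although the groups did not overlap, and it was called without CGF mouse 18 (0.52). When counts were corrected for gene length and GC content library by library, the change of Malat1 was smaller in every type. It was 0.78 in Hip and 0.56 in PFC excitatory neurons, and it was no longer called in Hip microglia (0.048, edgeR adjusted p = 0.892), in PFC oligodendrocytes (0.063, edgeR adjusted p = 0.758) or in PFC astrocytes (-0.038, edgeR adjusted p = 0.855).

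Malat1 made up 6.71% to 7.36% of all UMIs of a Hip library in GF mice, 2.92% to 3.03% in SPF mice and 2.91% to 3.28% in CGF mice. In PFC its share was 6.33% to 6.91%, 3.31% to 3.60% and 3.01% to 3.89%. The 6 genes together took 7.68% to 8.44%, 3.72% to 3.90% and 3.74% to 3.93% of a Hip library in that order of groups. Of a PFC library they took 7.34% to 8.01%, 4.18% to 4.52% and 3.72% to 4.84%. In an exact permutation test over the 3 groups (F statistic, 3 mice each) the raw p for Malat1 was 0.0179 in Hip and 0.0286 in PFC. After Benjamini-Hochberg adjustment over 14 values it was 0.0571 in both, so that no share passed with all mice. The smallest raw p this design can give is 0.00357. Without CGF mouse 18 the joint share in PFC passed (permutation test, adjusted p = 0.0333). With mitochondrial genes, Gm42418, AY036118, Lars2 and Cmss1 left out, the smallest adjusted p was 0.0562 in each region.

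Since depth differed between the PFC libraries, Malat1 was also read among nuclei of like depth. In Hip excitatory neurons with 4000 to 8000 UMIs the GF mice held 65445 to 72164 CPM, the SPF mice 27253 to 27506 and the CGF mice 26725 to 30718. In PFC excitatory neurons of that depth it was 64428 to 70789, 32696 to 35386 and 28243 to 40158. The GF mice stayed above the others in both. In PFC astrocytes with 2000 to 4000 UMIs, by contrast, it was 90970 to 92600 in GF mice, 68204 to 81022 in SPF mice (73 nuclei) and 90622 to 121084 in CGF mice (148 nuclei), so that CGF and GF mice overlapped. In Hip astrocytes of that depth they did not, at 92931 to 101953, 41923 to 46765 and 49730 to 54690.

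**Figure D4:**
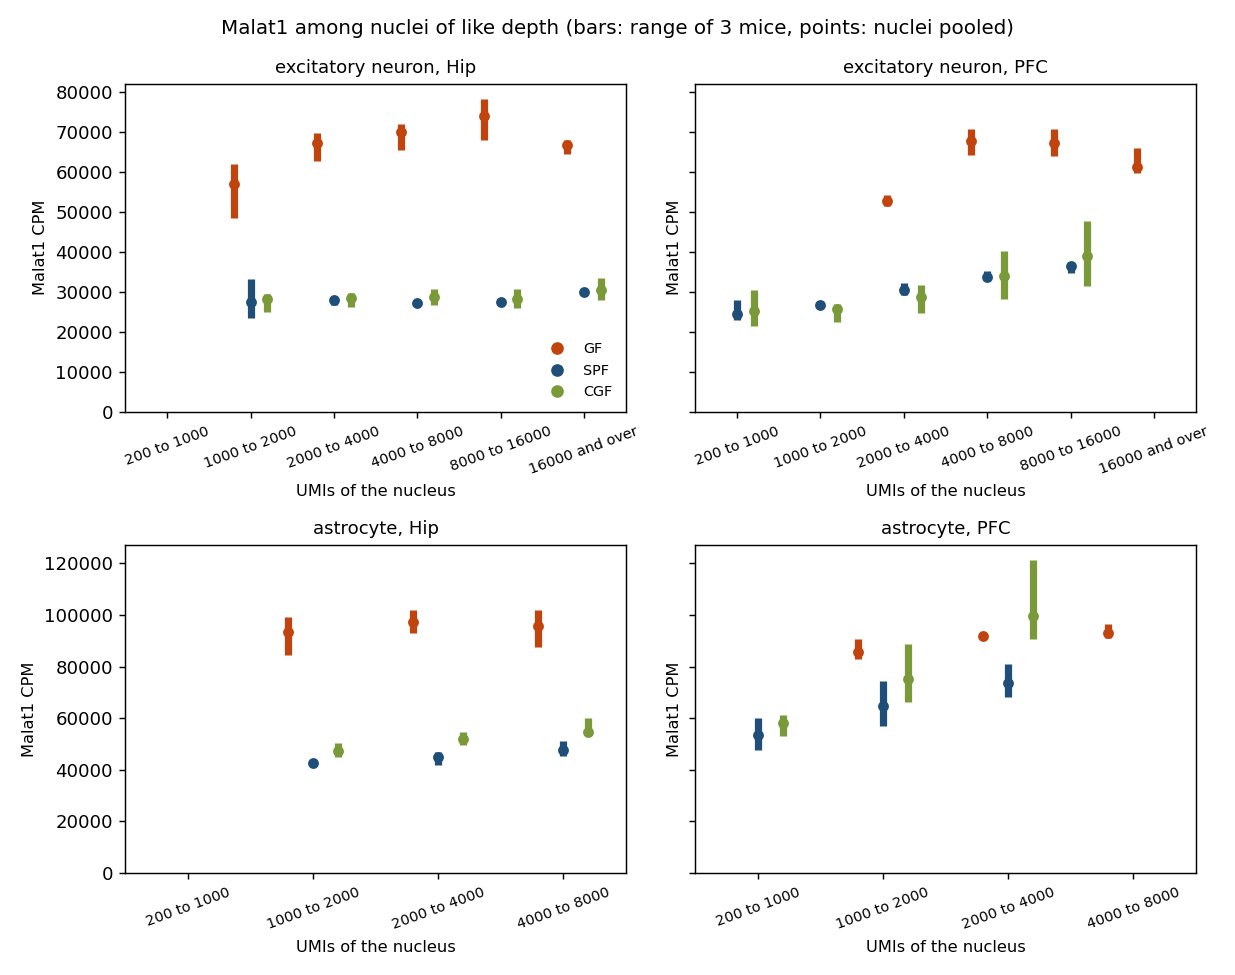
Malat1 (CPM) in nuclei grouped by their total UMIs, in excitatory neurons (top) and astrocytes (bottom) of Hip (left) and PFC (right), for classes of depth filled by 3 mice of a group. Points are pooled nuclei and bars run from the lowest to the highest mouse, and GF lies above SPF in each class that both fill, while CGF reaches the GF level in PFC astrocytes with 2000 to 4000 UMIs.

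Neat1, the paraspeckle scaffold next to Malat1, was not called higher in any type. In PFC astrocytes it was 244.0, 143.3 and 197.9 CPM in GF, 301.0, 718.4 and 642.6 in SPF and 214.9, 433.5 and 388.1 in CGF mice. The GF mice lay under the SPF mice and overlapped with the CGF mice, and the log2 fold change against SPF was -1.48 ± 0.25 (edgeR, adjusted over all genes). In Hip astrocytes it was 275.7, 178.2 and 170.7 in GF against 274.3, 490.2 and 363.8 in SPF mice, which overlapped, with -0.85 ± 0.20 (edgeR adjusted p = 0.0052). In PFC interneurons, where Neat1 was near the floor at 1.200 to 6.586, the change was -1.31 ± 0.41, and it was not called without GF mouse 6, SPF mouse 31 or SPF mouse 32 (-1.02 to -1.21) or in nuclei of 1500 to 6000 UMIs (-1.24). In oligodendrocytes, the highest of the 6 types, it was 640.8, 477.8 and 330.2 in GF against 542.7, 529.8 and 478.1 in SPF mice of Hip. In PFC it was 564.9, 561.7 and 427.9 in GF, 661.4, 617.2 and 668.6 in SPF and 785.8, 903.7 and 659.1 in CGF mice, and the GF mice lay under all others. The test was not passed in either region (edgeR adjusted p = 0.933 and 0.167). Per 1000 Malat1 UMIs, the Hip oligodendrocytes held 4.61 Neat1 UMIs in GF mice and 10.99 in SPF mice, and those of PFC held 5.33 and 10.4. This ratio also falls where Malat1 alone is higher.

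Meg3 and Mirg of the Dlk1-Dio3 region parted in neurons. Meg3 in excitatory neurons of Hip was 6244, 6957 and 6506 in GF and 6433, 5639 and 5195 in SPF mice, with overlap and a log2 fold change of 0.02, and -0.01 in interneurons. By subtype the GF mice lay above all others in CA1 (7695 to 8502 against 6129 to 7378) and CA3 (7735 to 8349 against 6218 to 7575). In dentate granule neurons GF and SPF mice overlapped, at 1253 to 1679 and 1413 to 1732. Meg3 was not tested by subtype, and these CPM carry no TMM factors, unlike the log2 fold change. The factors of Hip excitatory neurons were 1.07 to 1.11 in GF and 0.96 to 0.99 in SPF mice. Without them the mean Meg3 level of all these neurons was also higher in GF mice, at 6569 against 5756 CPM. In PFC excitatory neurons it was 7241, 7074 and 7047 in GF, 6331, 5969 and 5265 in SPF and 6171, 4707 and 6251 in CGF mice, and was called higher (0.44 ± 0.13, edgeR adjusted p = 0.0096), but not without TMM factors (0.28) or in nuclei of 1500 to 6000 UMIs (0.30). Mirg was lower in both neuron types of both regions. In Hip interneurons it was 141.5, 146.1 and 144.6 in GF, 222.7, 195.0 and 224.1 in SPF and 211.7, 177.7 and 206.1 in CGF mice, and all GF mice lay under the others (-0.72 ± 0.08). The change of Mirg was -0.60 in Hip excitatory neurons, -0.54 in PFC excitatory neurons and -0.55 in PFC interneurons. In nuclei of 1500 to 6000 UMIs the value in Hip excitatory neurons was -0.24 and was not called.

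The ratio of the 2 transcripts compares them inside the same nuclei. In Hip excitatory neurons, Mirg was 10.9 ± 1.31 per 1000 Meg3 UMIs in GF mice and 16.9 ± 2.18 in SPF mice (SD, 3 mice each), and in PFC excitatory neurons 12.8 ± 1.99 and 25.3 ± 0.564. The GF mice lay under all SPF and CGF mice in both. CGF mice had means of 17.1 and 26.1. Interneurons gave 13.1 against 21.5 in Hip and 15.5 against 27.3 in PFC for GF against SPF. Each exact permutation p was 0.1 (two-sided), which is the smallest that 3 mice against 3 can give. In glia the ratio was lower in all 4 types of PFC, from 7.26 against 31.4 in astrocytes to 9.33 against 20.3 in microglia, and without overlap also in Hip oligodendrocytes (5.46 against 10.1). The latter rests on 12 Mirg UMIs in GF and 78 in SPF mice. Counts were low in PFC glia too, and the ratio in PFC OPC rests on 18 Mirg UMIs in GF and 31 in SPF mice. PFC microglia of a mouse held as few as 88724 UMIs of all genes, and their ratios in the SPF mice were 13.2, 19.3 and 28.4. The ratio overlapped in Hip astrocytes (9.87 and 9.98), OPC (8.18 and 10.3) and microglia (6.68 and 9.67). There the GF mice held 31, 12 and 7 Mirg UMIs in all.

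**Figure D5:**
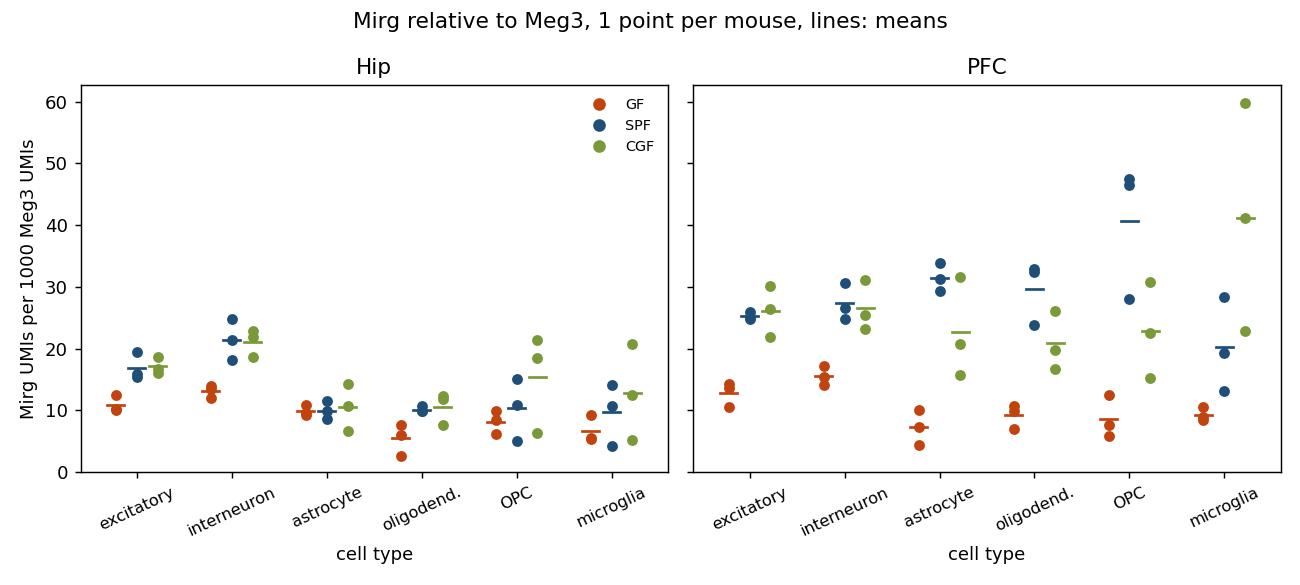
Mirg UMIs per 1000 Meg3 UMIs by cell type in Hip and PFC, with 1 point for each mouse and a line at the group mean. In excitatory neurons and interneurons the GF mice lie under all SPF and CGF mice in both regions (mean 12.8 against 25.3 in PFC excitatory neurons), and in Hip astrocytes the groups overlap.

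In glia, where Meg3 and Mirg were low, Meg3 was called lower in GF mice in all 4 glial types of both regions, from -0.61 in OPC to -1.11 in oligodendrocytes in Hip, and from -0.61 in OPC to -0.98 in microglia in PFC. The call in Hip astrocytes was lost without GF mouse 5 (-0.39), GF mouse 7, SPF mouse 30 or 32, or CGF mouse 17 or 18, and that in Hip OPC without GF mouse 5 (-0.43), SPF mouse 30 or SPF mouse 32. In nuclei of 1500 to 6000 UMIs, Meg3 was not called in PFC astrocytes (-0.41), oligodendrocytes (-0.31) or OPC (-0.14), and at a clustering resolution of 0.5 it was -0.06 in Hip microglia. In PFC astrocytes it was 561.5, 661.2 and 713.1 in GF against 1060, 1336 and 1191 in SPF mice. Mirg in the same astrocytes was 2.434, 4.847 and 7.203 against 31.07, 41.70 and 40.25, which rests on 26 and 68 UMIs in all, with a change of -2.86 ± 0.36. In Hip it was called in oligodendrocytes (-1.98 ± 0.41, from 12 UMIs in GF and 78 in SPF mice). It was not called in Hip astrocytes or OPC, and not tested in Hip microglia. Without SPF mouse 32 the call in PFC microglia was lost (-1.72). The 10 neuronal transcripts of the list were read beside these values. In Hip they held fewer CPM in GF than in SPF mice in astrocytes (3401 to 4295 against 5066 to 6918), oligodendrocytes (2824 to 3461 against 3912 to 6151) and microglia (3879 to 4503 against 5315 to 7628), and overlapped in OPC (7859 to 8790 against 8449 to 9961). In PFC they overlapped in all 4 types, at 3091 to 3899 against 3895 to 5241 in astrocytes, 3785 to 4600 against 4471 to 5801 in oligodendrocytes, 6751 to 8615 against 6315 to 7688 in OPC and 4834 to 5887 against 4806 to 6982 in microglia. Relative to PFC excitatory neurons, where the list was higher in GF mice (23916 to 26552 against 16942 to 18347), it stood lower in GF mice in all 4, for example at 11.6% to 15.1% against 23.0% to 28.6% in astrocytes. Their part in the lower glial values was not tested.

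Snhg11 was higher in neurons and lower in part of the glial types. In PFC interneurons it was 6645, 6610 and 5891 in GF, 3640, 3258 and 2707 in SPF and 3888, 2986 and 4386 in CGF mice, with all GF mice above the others and a log2 fold change of 1.07 ± 0.13. In Hip interneurons it was 7753, 8121 and 6826 in GF, 4462, 4681 and 3751 in SPF and 4475, 3872 and 3909 in CGF mice (0.67 ± 0.10). In excitatory neurons it was higher by 0.54 ± 0.14 in Hip (edgeR adjusted p = 0.01) and by 0.85 ± 0.14 in PFC. Without SPF mouse 32 the value in Hip excitatory neurons was 0.44 and was not called. Neither neuron type of Hip was called with the length and GC correction (0.26 and 0.27). Among the subtypes of Hip, CA1 and CA3 neurons of each GF mouse held more Snhg11 than those of any other mouse, whereas GF dentate granule neurons held 107.2 to 199.8 against 203.2 to 292.3 in SPF mice. These subtypes were not tested. In glia Snhg11 was called lower in oligodendrocytes (-0.89) and microglia (-0.72) of Hip and in all 4 glial types of PFC, from -0.40 to -0.84. Relative to excitatory neurons, Snhg11 in PFC astrocytes stood at 9.89% to 11.9% in GF and 25.3% to 31.2% in SPF mice, and in Hip oligodendrocytes, where the neuronal transcripts stood at 13.3% to 15.1% and 16.4% to 25.6%, at 8.38% to 11.9% and 28.8% to 39.2%. The part of these transcripts in the glial values of Snhg11 was not tested. The call in Hip microglia was lost without GF mouse 5 (-0.45) or SPF mouse 30, and that in PFC oligodendrocytes without GF mouse 5 (-0.31) or 7 or SPF mouse 31 or 32. In nuclei of 1500 to 6000 UMIs, Snhg11 was not called in PFC astrocytes (-0.12), oligodendrocytes (0.19) or OPC (-0.06), and at resolution 0.5 it was 0.27 in Hip microglia.

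Miat was not called in excitatory neurons, the type in which it was highest. There it was 314.7, 322.2 and 285.1 in GF and 301.7, 304.8 and 263.7 in SPF mice of Hip, and the change was -0.03 in PFC. It was lower in PFC interneurons (-0.43) and in astrocytes and oligodendrocytes of both regions, at -0.73 and -1.17 in Hip and -1.24 and -1.50 in PFC. It was also lower in PFC microglia (-1.51) and in PFC OPC (-0.83), and in OPC it was -0.04 and not called in nuclei of 1500 to 6000 UMIs. Relative to excitatory neurons, Miat in PFC astrocytes stood at 7.26% to 13.3% in GF and 17.6% to 28.0% in SPF mice, beside the 11.6% to 15.1% and 23.0% to 28.6% of the neuronal transcripts, whose part in the glial values of Miat was not tested. The call in Hip astrocytes was lost without GF mouse 5 or SPF mouse 32 (both -0.56). In PFC oligodendrocytes it was 19.52, 34.39 and 38.16 in GF, 90.45, 91.85 and 88.49 in SPF and 92.44, 67.93 and 59.92 in CGF mice, where the percentages of nuclei with a Miat UMI were 4.08% to 7.58% in GF and 7.28% to 7.62% in SPF mice.

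CGF and SPF mice were compared to ask whether mice that gained a microbiota by co-housing differ from mice reared with one, and this comparison shares its SPF mice with the one above. None of the 35 member tests was called in either region (0 called, edgeR), against 0.285% of all tests over the 6 types in Hip and 0.303% in PFC. At an unadjusted p under 0.05 there were 4 in Hip and 2 in PFC, and DESeq2 called 0 in each. Malat1 differed by log2 values of -0.04 to 0.23 over the types of Hip and -0.02 to 0.29 over those of PFC, against 0.55 to 1.22 and 0.50 to 1.14 for GF against SPF. Although not called, Malat1 of CGF mice lay above that of all SPF mice in Hip astrocytes (49502 to 54642 against 43126 to 47157) and oligodendrocytes (49449 to 52137 against 44841 to 49388). In the other Hip types these groups overlapped. Without the filter on low counts, Neat1 in astrocytes was called lower in CGF mice in each region.

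Hip and PFC of the same mice were compared within GF and within SPF mice. Among GF mice, 1 of 36 tests was called, Mirg in excitatory neurons, lower in Hip (-0.49 ± 0.14, edgeR adjusted p = 0.011), where 5.92% of all tests were called lower. Without GF mouse 6 it was -0.41 and was not called, and with the mouse as a block 3 were called. Among SPF mice, 2 were called higher and 8 lower in Hip, against 23.7% and 21.9% of all tests, and 14 in all with the mouse as a block. The higher ones were both in interneurons, Meg3 at 0.51 ± 0.09 and Snhg11 at 0.64 ± 0.12. The lower ones were Malat1 in astrocytes (-0.50) and oligodendrocytes (-0.43), Miat in OPC (-0.58) and oligodendrocytes (-0.80), and Mirg in excitatory neurons (-0.38), astrocytes (-1.75), oligodendrocytes (-1.64) and OPC (-1.98). Of these, Miat in oligodendrocytes was lost without SPF mouse 30 or 31, Miat in OPC without any 1 of 7 mice (-0.50 to -0.63), Malat1 in astrocytes without SPF mouse 30, and Mirg in excitatory neurons without SPF mouse 30 or 31. In nuclei of 1500 to 6000 UMIs, 3 of the 10 were called, Mirg in excitatory neurons, Snhg11 in interneurons and Malat1 in astrocytes, all in the same direction, and 7 were not, of which Miat in OPC was at 0.33. In those nuclei 11 tests were called in all, 3 higher and 8 lower. The shares of all genes called in those nuclei or with the block are not given. Among the lower ones were Meg3 (-0.73), Snhg11 (-0.85) and Miat (-0.41) in excitatory neurons, not called with all nuclei. In the SPF mice the PFC libraries were the shallower ones, so depth and region cannot be told apart there.

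The change between GF and SPF mice was tested for a difference between Hip and PFC as an interaction. It was larger in Hip than in PFC, or less negative, in 4 of 36 tests and smaller in 1, against 14.7% and 17.3% of all tests. In nuclei of 1500 to 6000 UMIs the balance was 1 and 4. The shares of all genes called in those nuclei or with the mouse as a block are not given. Malat1 rose more in Hip in astrocytes, by 0.53 ± 0.19, and in oligodendrocytes, by 0.54 ± 0.15. Mirg in astrocytes (-0.72 in Hip, -2.86 in PFC) differed by 2.20 ± 0.58, and Miat in OPC differed by 0.91 ± 0.29. Meg3 in excitatory neurons differed by -0.47 ± 0.17, where the median of all genes was -0.11. The adjusted p of these values by edgeR was 0.037, 0.012, 0.006, 0.023 and 0.028, and with the mouse as a block 7 tests were called. The values of Malat1 in oligodendrocytes and Mirg in astrocytes stayed called without each mouse, but not in nuclei of 1500 to 6000 UMIs (0.53 and 0.79). That of Malat1 in astrocytes was 0.63 and called in those nuclei, and was not called with the block (0.52), without the filter (0.40), at resolution 0.5 (0.51) or without GF mouse 5, 6 or 7 or SPF mouse 30 or 32. That of Meg3 was lost without TMM factors (-0.09), with scaling without the members (-0.40), with the length and GC correction (-0.17), in nuclei of 1500 to 6000 UMIs (0.058) and without GF mouse 5, 6 or 7 or SPF mouse 30 or 31, and that of Miat without the filter (0.79), with the correction (0.61), without likely doublets (0.48), in those nuclei (-0.27) and without GF mouse 5 or 6 or SPF mouse 30, 31 or 32.

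Proteins and RNAs that work with these genes were counted in excitatory neurons, in GF against SPF mice, from lists by gene name. In that type 25.4% of all genes were called higher and 21.7% lower in Hip, and 32.1% and 31.1% in PFC. Of 29 nuclear speckle proteins and SR splicing factors, which share the speckle with Malat1, 16 were higher and 1 lower in Hip (median 0.26, all genes 0.04), and 4 were higher and 18 lower in PFC (median -0.42, all genes 0.01). Srsf11, a splicing factor, was higher in Hip by 0.39, and the speckle scaffold genes Srrm2 and Son were lower in PFC by log2 values of -2.20 and -2.41, whereas Srrm2 in Hip was at -0.06 and did not pass. Of 23 paraspeckle proteins tested, which bind Neat1, 7 were higher and 6 lower in Hip, and 7 and 8 in PFC. Sfpq, a core paraspeckle protein, was lower in both, at -0.52 and -1.80. The 17 library quality genes were lower in PFC excitatory neurons in 17 of 17 cases, with a median of -2.96, and 4 were higher and 4 lower in Hip. Their part in the PFC values was not tested.

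Of 11 genes that make miRNAs and snoRNAs, 1 was higher and 6 lower in Hip, and 1 and 7 in PFC. Dicer1, the nuclease that cuts mature miRNAs, was at -0.62 in Hip and -1.91 in PFC, and Drosha, which cuts their precursors from host RNAs such as Mirg, at -0.77 and -1.74. Of 4 measured proteins known to bind Miat, Celf3, a splicing factor of neurons, was higher by 1.07 in Hip and 1.63 in PFC, and Sf1, which recognizes the branch point of introns, was lower in PFC (-0.79). Of 17 other long noncoding RNAs measured, 5 were higher and 4 lower in Hip, and 6 and 7 in PFC. Kcnq1ot1, another imprinted RNA, was at -0.57 in Hip and 0.59 in PFC, and Gm26917 at -3.98 in PFC. The library quality genes were lower in the same PFC neurons, and their part in the value of Gm26917 was not tested. Of the listed genes of the Dlk1-Dio3 region, Meg3 and Mirg included, 1 of 6 tested was called in Hip (Mirg, lower), and 2 were higher and 2 lower of 4 in PFC. Gm26945 and Gm26906 of that region were not on the list and are described below. Rtl1 was higher (2.83) and Begain lower (-2.33) in PFC, and neither passed in Hip.

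The genes whose mean level over the 12 combinations of type and region was most like that of a member were named by Pearson's r of log2 values among 7119 genes with at least 50 CPM in some type. These points share libraries and depth, and the values are descriptions. For Malat1 they were Clmn (r = 0.95), Efhd1 (0.93) and Daam2 (0.92), and for Neat1 they were Trp53bp2 (0.97), Slc20a2 and Phgdh (both 0.96). For Meg3 they were Cntn5, Zfp385b and Epha10 (all 0.99), for Snhg11 Necab1, Cntnap2 and Dzank1 (all 0.99), for Mirg Etl4 (0.99), Il1rapl2 and Cacna1b (both 0.98), and for Miat Add2 (0.99), Rapgefl1 (0.98) and B230209E15Rik (0.97). Among the members themselves, Meg3 was closest to Snhg11 (0.99) and Mirg (0.97), and Malat1 to Neat1 (0.87).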

How the data were processed

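Nuclei of 18 libraries (9 mice, 2 regions) were measured by 10x Genomics 3′ single-nucleus RNA sequencing. The deposited counts are whole UMIs per gene and nucleus, which the authors made with Cell Ranger (3.1.0 in the matrix headers, after CASAVA 1.8 per the submitters' processing notes) on mm10 with Ensembl genes. The kit version is given differently in the sources, and whether intronic or antisense reads were counted is not given in the sources used here. Each mouse is a separate animal, and groups, regions and mouse numbers came from the labels.

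A nucleus was kept with at least 200 genes and at most 10% mitochondrial UMIs, which removed 828 in Hip and 1096 in PFC. Counts were scaled to 10000, and 2000 variable genes, without the members, and 10 components were clustered with 20 neighbours (Leiden, resolution 1). A cluster was named where at least 3 markers were raised and its score led the next by 0.3. Doublets were scored, and the top 0.8% per 1000 nuclei of a library were dropped in 1 of the alternatives. Sums of UMIs over each mouse and type were tested with edgeR (filterByExpr, TMM, glmQLFit, glmQLFTest), with 9 mice in a fit per region, and all 18 sums in a fit for regions and the interaction, Benjamini-Hochberg adjustment over all genes, and calls at an adjusted p under 0.05. Standard errors were taken as the size of the log2 change over the root of F. Library shares were planned as a test of fewer values and were adjusted over 14. The mouse number marks the same animal in both regions. Deviations from group means of a mouse's excitatory neurons correlated by 0.196 to 0.472 between regions and by -0.341 to 0.033 with other mice of the group. In astrocytes the ranges were -0.0217 to 0.255 and -0.219 to 0.113, and 6 of 9 mice correlated best with their own library. Since the deviations in a group sum to 0, lower values with other mice are partly built in.

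Genes named are the members, the 3 genes most like each member, and the highest-expressed members of lists of related genes. The members and lists were chosen with earlier results of these data known. Annotation (GENCODE vM21) matched 30766 of 30905 genes (99.55%). Sequences are from that annotation and RefSeq (GRCm38.p6). A sequence within 1 member is not reported here. The counts test was checked on simulated counts. Tests used DESeq2 1.42.0, limma 3.58.1 and edgeR 4.0.16 under R 4.3.3. Clustering ran in Python 3.11.15 with leidenalg 0.10.2, igraph 0.11.9 and scikit-learn 1.9.0, the rest used pandas 2.3.3, scipy 1.17.1 and numpy 2.4.6, and plots matplotlib 3.10.9. Alternatives were DESeq2, no filter, no TMM factors, scaling without the members, a length and GC correction, nuclei of 1500 to 6000 UMIs, resolution 0.5, members kept in clustering, at least 500 genes, no likely doublets, the mean of nuclei, the block, only the 6 mice of 2 groups, and each mouse left out.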

Additional observations from a re-analysis of the deposited data

Results flagged for a closer look

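The change between GF and SPF mice differed between Hip and PFC by an interaction test (edgeR, Benjamini-Hochberg adjusted over all genes) in 5 of 36 tests, where 14.7% of all tests were called higher and 17.3% lower. Meg3 in excitatory neurons had a difference (Hip minus PFC, log2) of -0.47. Malat1 had a difference of 0.53 in astrocytes and 0.54 in oligodendrocytes. Mirg in astrocytes had a difference of 2.20, resting on 26 UMIs in PFC of GF mice. Miat in OPC had a difference of 0.91. In nuclei of 1500 to 6000 UMIs the value of Malat1 in astrocytes was called and the other 4 were not. That value was not called with the mouse as a block (0.52), without the filter on low counts (0.40), at resolution 0.5 (0.51) or without any 1 of 5 mice, whereas Malat1 in oligodendrocytes and Mirg in astrocytes stayed called without each mouse. The share of Gm42418 differed between GF and the other mice in PFC more than in Hip, and its part was not tested.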

How the results depend on the processing

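Counts of calls over the members were 20 (Hip) and 29 (PFC) for GF against SPF, 0 and 0 for CGF against SPF, 1 and 10 for Hip against PFC in GF and SPF mice, and 5 for the interaction. For GF against SPF in PFC, nuclei of 1500 to 6000 UMIs gave 13 (7 higher, 6 lower) with 8 values too low to be tested, 7 of them called otherwise, and leaving out 1 mouse gave 16 to 22 in Hip and 26 to 31 in PFC. CGF against SPF gave 1 in each region without the filter and 0 without any 1 mouse. Hip against PFC in GF mice gave 2 with DESeq2, 6 at resolution 0.5, 0 without TMM factors, 4 with the UMI window, 2 with the length and GC correction and 0 to 1 without 1 mouse (0 without GF 6). In SPF mice it gave 18 with the length and GC correction (2 higher, 16 lower) and 7 to 11 without 1 mouse. The interaction gave 1 higher and 4 lower with the UMI window, 11 at resolution 0.5 and 2 to 6 without 1 mouse, with 2 without GF 5, GF 6 or SPF 30 and 3 without GF 7 or SPF 31. The smallest adjusted p of the library shares ran from 0.05 to 0.08 in Hip and from 0.0333 to 0.08 in PFC without 1 mouse. It passed without CGF 18 in PFC, and without CGF 17 in Hip it reached the threshold (0.05). With the mouse as a replicate block the count was 3 in GF mice, 14 in SPF mice and 7 for the interaction. The shares of all genes called under these alternatives are not given.

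Among single values called as reported or under the alternative, 21 changed sign. With the UMI window, Hip against PFC in SPF excitatory neurons was -0.73 for Meg3, -0.85 for Snhg11 and -0.41 for Miat, the Meg3 interaction there 0.058, Malat1 in SPF interneurons -0.38, Miat in SPF OPC 0.33 with an interaction of -0.27, Malat1 in SPF microglia 1.19 with an interaction of -1.23, and Snhg11 in PFC oligodendrocytes (GF against SPF) 0.19. The Malat1 interaction in excitatory neurons was 0.35 without TMM factors and 0.30 with the length and GC correction, and Malat1 between regions in SPF interneurons -0.20 and -0.19. Malat1 in PFC astrocytes was -0.038 with that correction. At resolution 0.5, Snhg11 in Hip microglia was 0.27, Hip against PFC in GF microglia was 1.56 for Meg3, 1.52 for Snhg11 and 1.85 for Mirg, and Meg3 in SPF microglia was 0.58 with an interaction of 0.99. The cause was not tested.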

Other observations

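Gm26906, an antisense gene at the 3′ end of Meg3 (chr12:109568628-109571723, minus strand), was looked at after the data had been seen. In PFC excitatory neurons it was 41.29, 43.87 and 35.33 CPM in GF, 9.232, 6.684 and 6.762 in SPF and 10.73, 6.260 and 12.35 in CGF mice. Its log2 fold change there was 2.57 ± 0.20 (edgeR, GF against SPF), and 2.28 ± 0.25 in PFC interneurons, but 0.05 and -0.01 in the same types of Hip. In Hip excitatory neurons Gm26906 was at 25.82 to 38.29 CPM over all mice, so the values that stand apart are those of SPF and CGF mice in PFC. Their PFC libraries were the shallower ones with more Gm42418, so depth and group cannot be told apart there. Meg3 in PFC excitatory neurons differed by 0.44. Of the other genes looked at in the same region, Gm26945, which was low at 2.834 to 8.552 CPM in Hip excitatory neurons, was called lower there (-1.03) and in interneurons of Hip (-1.43) and PFC (-0.83), and B830012L14Rik was called lower in Hip interneurons (-0.46). Since the strand setting of the counting is not given in the sources used here, reads of Meg3 and of Gm26906 cannot be told apart with certainty.

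Outside the 6 major types, Neat1 was high in cells of vessels and meninges. It was 656.2 to 1733 CPM in fibroblast-like nuclei of PFC, 129.6 to 605.1 in mural-like nuclei of PFC, 320.8 to 660.8 in choroid plexus-like nuclei and 137.6 to 305.5 in endothelial-like nuclei. Malat1 in mural-like nuclei was 106222 to 121034 in GF mice and 66526 to 86580 in SPF mice, and in fibroblast-like nuclei 98582 to 103050 and 45785 to 71366, with GF above SPF mice. In ependymal-like nuclei of Hip they overlapped, at 47681 to 73899 in GF and 40640 to 48338 in SPF mice.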
